A study of Homo sapiens with 45 samples.

Results

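G292 is a human osteosarcoma cell line, a tumour of bone whose cells lay down osteoid. The labels give it as G-292 clone A141B1, so it is 1 clone. It was set against the other osteosarcoma lines of the series: MNNG/HOS Cl #5 (called HOS-MNNG here), KHOS/NP (KHOS), MG-63 (MG63), SaOS-2 (SAOS2) and U2OS. HOS-MNNG and KHOS both descend from the HOS line. The rule compared the 3 G292 libraries with the 15 libraries of the other 5 lines, out of 45 libraries in the series, and took the genes that were highest or lowest in all 3 G292 libraries. The labels name no treatment for the libraries used. The 21 libraries of 7 Ewing sarcoma lines (TC71, SKES1, RDES, MHHES1, EW24, EW3 and A673) served as an outside reference. They did not enter the choice of genes, but the G292 values set beside them did.

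Of 26616 genes tested, 2463 (9.25%) had all 3 G292 libraries above the other 15 in log2 CPM (counts scaled to a common library size), and 1396 (5.24%) had all 3 below. These genes are the members, and the 2 shares, over coding and non-coding genes together, are the background printed with the lists below. Most listed genes are protein-coding, and over 17119 protein-coding genes the shares were higher, 11.4% above and 6.6% below. Among 11635 protein-coding genes whose mean log2 CPM reached 1, 1536 lay above and 971 below. A list share close to 11.4% above or 6.6% below is therefore ordinary for coding genes. Of the members, 844 above and 314 below had a mean log2 CPM under 1, that is, low counts. Just inside the limit above lay TMEM25 and SLK, and STAU1 and TUBB6 fell just outside, with gaps of less than 0.01 log2 CPM either way. Just inside the limit below lay NFKBIB and COQ6, with gaps equally small. The choice fixes the direction of these genes, so their position among the 6 lines is a description.

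Osteosarcoma lines keep parts of the programme of the bone-forming osteoblast, which is set by the transcription factors RUNX2 and SP7 and carried out through collagen, alkaline phosphatase and mineral regulators. The tumours have rearranged genomes, and neighbouring genes can therefore share a high or a low level. DNA copy number was not measured here. KCNN2, taken as the marker of G292, encodes the small-conductance potassium channel SK2, which opens when calcium rises inside the cell. MEG3 is a maternally expressed long non-coding RNA of the imprinted DLK1-DIO3 domain on chromosome 14, and CDK4 is the cyclin-dependent kinase that drives cells out of G1. MHC class II molecules present peptides to CD4+ T cells and are normally made by immune cells or after interferon gamma, under the control of the coactivator CIITA.

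The tables hold estimated counts and TPM (a level scaled for transcript length and depth). The G292 libraries held 44616029, 44911542 and 28164956 estimated counts, and the 18 osteosarcoma libraries 15974173 to 44911542. Libraries of a line correlated at r = 0.984 to 0.992, and no pair agreed within sampling noise. The first G292 library stood apart from the other 2, with a chi-square per degree of freedom of 38.1 and 41.4 against 7.27 between them, as the first HOS-MNNG library did from its own (43.97 and 64.1 against 13.2). Without the first G292 library, the counts over libraries given below were 1959 genes higher and 1279 lower, and MEG3 kept its call over line sums. Over line means, G292 had a Spearman correlation of 0.761 with U2OS, 0.786 with SAOS2, 0.794 with KHOS, 0.796 with HOS-MNNG and 0.806 with MG63, against 0.946 between HOS-MNNG and KHOS, over 12587 genes. The labels do not say that the 3 libraries of a line came from separate cultures, so p-values over libraries measure only the spread between these libraries, which may be technical.

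Each gene was tested in 2 ways with edgeR's quasi-likelihood test and Benjamini-Hochberg adjustment (FDR). The first summed the 3 libraries of a line, so that G292 was 1 unit against 5 and was assumed to vary as the other lines do. The second compared the G292 libraries with those of each other line. It carries the spread between libraries but not between lines. Each SE given with a log2 fold change is the absolute fold change divided by the square root of the test's F statistic. Such an SE restates the test and is not a separate measure of precision. Over line sums 1 of 26616 genes passed an FDR of 0.05, MEG3, which is 0.00376%; the median log2 fold change of all tested genes was -0.26. An unadjusted p under 0.05 was found for 1420 genes (5.34%). Over libraries, 2127 of 21912 genes (9.71%) were higher in G292 than in each of the other 5 lines and 1365 (6.23%) were lower than in each. A permutation of 1 line against 5 cannot go below p = 0.167. With the spread estimated from all 13 lines, 102 genes were higher (0.36%) and 14 lower (0.0494%) in G292, of 28351. DESeq2's Wald test on line sums called 1.06% of genes higher and 2.71% lower, and limma on the line means of log2(TPM + 1) called 0.759% and 0.0263%.

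KCNN2 stood at 8.41, 4.44 and 6.78 TPM in the 3 G292 libraries. In the other 5 lines its mean was 1.18 TPM in U2OS, 0.645 in HOS-MNNG, 0.492 in KHOS, 0.0434 in SAOS2 and 0.0355 in MG63, and the highest single library had 1.35 TPM. All G292 libraries lay above all others, and G292 was 5.55 times the next line. Over libraries G292 was higher than each of the 5 lines, while over line sums the log2 fold change of 3.88 ± 1.55 (SE) had an edgeR FDR of 0.913. The Ewing sarcoma lines reached 0.191 TPM at most. In G292 the reads fell mainly on the RefSeq transcripts NM_021614.4 (3.92 TPM) and XM_017009457.2 (2.06 TPM). The second of these was at 0.162 TPM in KHOS and 0 in the other 4 osteosarcoma lines.

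Of 9 calcium-activated potassium channel genes tested, 2 lay above all other libraries (22.2%): KCNN2 and KCNMB4, a regulatory subunit of the large-conductance channel at 9.2, 5.98 and 4.49 TPM against 3.41 TPM in U2OS, the next line. KCNMB4 lies on 12q, in the stretch from KIF5A to TBC1D15 described below with CDK4. The median log2 fold change of the 9 was -0.18. KCNN1 (SK1) was at 0.0661, 0.172 and 0.0975 TPM in G292, about the level of the other lines except U2OS (4.36 TPM), and KCNN3 (SK3) was under 0.05 TPM in every G292 library. KCNN4, the intermediate-conductance channel, was at 64.9, 61.4 and 53.9 TPM, between MG63 (6.95) and U2OS (111). KCNMA1, the large-conductance pore subunit, was at 57.1, 53.8 and 52.1 TPM, between U2OS (18) and KHOS (252). KCNMB2, another regulatory subunit, was at 0.448, 0.128 and 0.156 TPM, against 12.1 in MG63 and 0 to 0.0807 in the other 4 lines. Over libraries it was higher in G292 than in those 4 lines, and its log2 fold change turned from -3.25 to 3.78 without MG63.

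**Figure D1:**
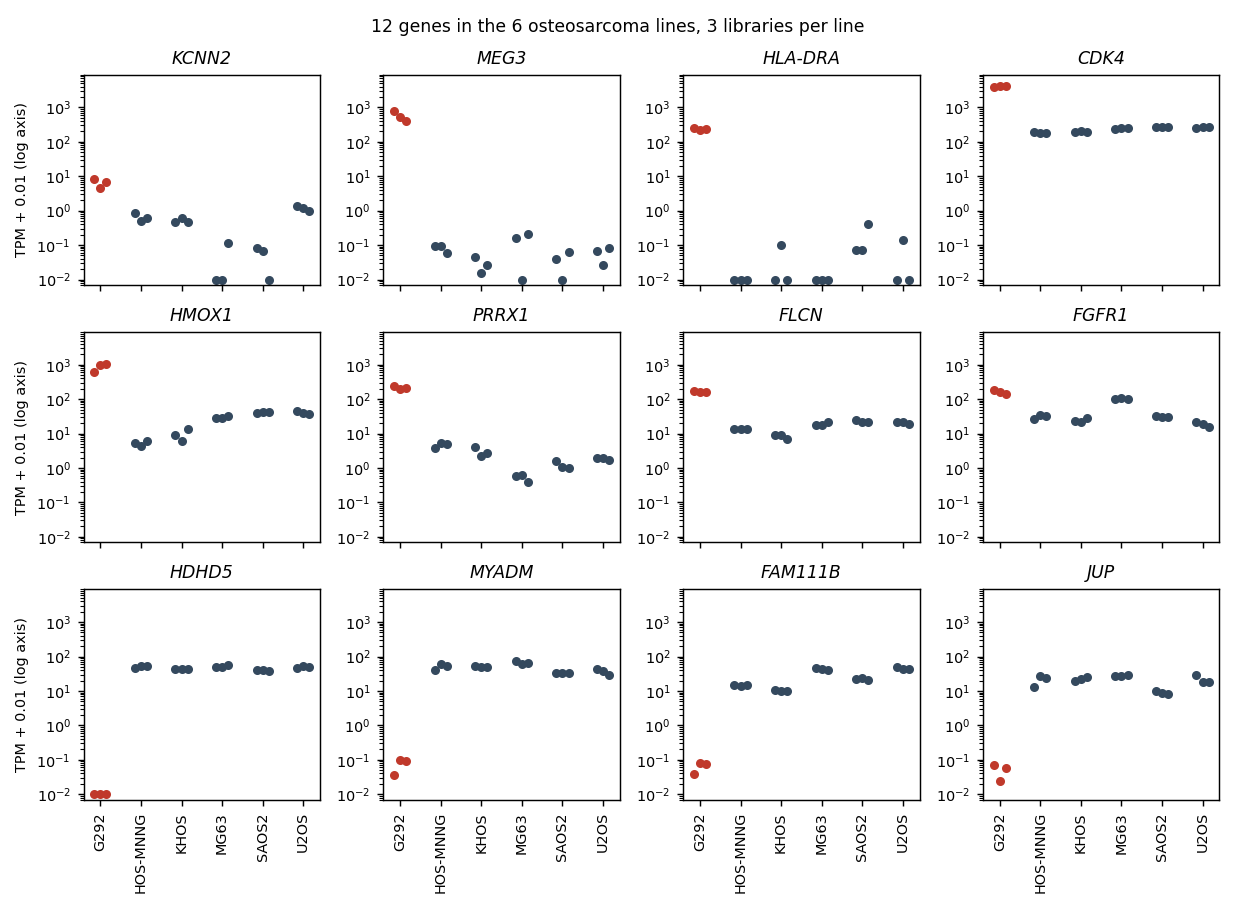
TPM of 12 genes (vertical axis, log scale, with 0.01 TPM added so that zeros can be drawn) in each library of the 6 osteosarcoma lines; each point is 1 library, with G292 in red and the other lines in dark blue. In the upper 2 rows the 3 G292 points lie above all 15 others, and in the lowest row, from HDHD5 to JUP, they lie below all of them.

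MEG3 was the 1 gene that passed the line-sum test. It stood at 790, 531 and 413 TPM in G292, and no library of the other 5 lines exceeded 0.194 TPM. The log2 fold change was 12.08 ± 0.56 (SE), with an edgeR FDR of 0.00925. The call held without SAOS2 (edgeR FDR 0.0462) and was lost when any other line was left out: the FDR was 0.134 without HOS-MNNG, 0.124 without U2OS, 0.072 without KHOS and 0.0558 without MG63. It was also lost with HOS-MNNG and KHOS as 1 line (0.0704) and with an effective length offset (0.073). The log2 fold change stayed between 11.93 and 13.37 in the fits that lost the call. Among the Ewing sarcoma lines the highest mean was 24.8 TPM, in A673.

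The non-coding neighbours of MEG3 were present in G292 with it. MEG8, a host transcript of small nucleolar RNAs, was at 11.5, 11.9 and 10.8 TPM, against at most 0.0599 in another osteosarcoma library, and MEG9 was at 19.3, 14.1 and 10.1 TPM against at most 0.0412. Of 25 genes at 5 TPM or more in every G292 library and under 0.5 TPM in every other osteosarcoma library, 14q32 held MEG3, MEG8, MEG9, MIR656, SNORD112, SNORD113-3, SNORD113-4, SNORD114-1, SNORD114-10 and SNORD114-13. These were picked after their values were seen, and the small RNAs rest on few counts, 15 for SNORD114-13 and 120 for SNORD113-3. Few counts give a short RNA a high TPM, as the 112 to 179 TPM of SNORD113-3 show. The libraries were of poly(A) RNA, and the SNORD genes lie within the span of MEG8. Whether their reads came from that host was not tested. The protein-coding, paternally expressed genes of the same domain did not share the pattern. DLK1, a membrane ligand related to Notch ligands, had 0 counts in all 3 G292 libraries, and DIO3, a deiodinase that inactivates thyroid hormone, was at 0, 0.0444 and 0 TPM. RTL1, a retrotransposon-derived gene, was at 0.306 TPM at most.

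The MHC class II genes on 6p21 formed the highest window of the genome: of all windows of 15 neighbouring protein-coding genes, that from HLA-DRA to HLA-DPA1 (GRCh38.p14, chr6:32439887-33080748) had the largest median log2 fold change, 3.74, against a median of -0.18 over 16797 windows. All 9 of its genes above every other library were class II genes. HLA-DRA, the invariant alpha chain of HLA-DR, was at 259, 221 and 237 TPM in G292 and at 0.394 TPM at most elsewhere (log2 fold change 12.29 ± 1.42, edgeR FDR 0.193). HLA-DRB1, its beta chain, was at 283, 249 and 274 TPM against 0.163 at most (11.73 ± 1.03, edgeR FDR 0.131). The gap between the lowest G292 library and the highest other one was 8.88 and 9.74 log2 CPM. Class II genes are polymorphic and close in sequence, so how reads were divided between HLA-DRB1 and HLA-DRB5 (238, 197 and 232 TPM) is uncertain.

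The promoters of HLA-DRB1, HLA-DRB5 and CD74 are shown as examples of genes that were on together in 1 line. They are RefSeq sequences of GRCh38.p14, from 250 bases before to 50 after the annotated start, read 5′ to 3′ on the gene's strand. The proximal promoters of class II genes are known for an S-X-Y module, in which the X box is bound by the RFX complex, the Y box by NF-Y, and CIITA joins both. Capitals mark CCAAT, the core of the Y box, and GCAAC, a half-site found in X boxes, on either strand, so that ATTGG is CCAAT and GTTGC is GCAAC on the other strand.
HLA-DRB1 (chr6:32589799-32590098, minus strand): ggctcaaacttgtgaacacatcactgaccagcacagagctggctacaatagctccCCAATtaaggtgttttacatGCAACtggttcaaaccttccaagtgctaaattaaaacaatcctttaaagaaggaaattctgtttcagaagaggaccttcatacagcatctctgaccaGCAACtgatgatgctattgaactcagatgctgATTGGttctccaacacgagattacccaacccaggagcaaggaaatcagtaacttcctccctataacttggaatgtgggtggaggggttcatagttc
HLA-DRB5 (chr6:32530238-32530537, minus strand): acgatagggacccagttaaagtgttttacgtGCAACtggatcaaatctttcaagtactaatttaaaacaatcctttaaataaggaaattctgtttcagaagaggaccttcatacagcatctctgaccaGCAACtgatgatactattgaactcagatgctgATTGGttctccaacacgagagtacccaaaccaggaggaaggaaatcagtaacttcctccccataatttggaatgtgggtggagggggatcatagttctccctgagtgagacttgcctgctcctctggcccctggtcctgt
CD74 (chr5:150412861-150413160, minus strand): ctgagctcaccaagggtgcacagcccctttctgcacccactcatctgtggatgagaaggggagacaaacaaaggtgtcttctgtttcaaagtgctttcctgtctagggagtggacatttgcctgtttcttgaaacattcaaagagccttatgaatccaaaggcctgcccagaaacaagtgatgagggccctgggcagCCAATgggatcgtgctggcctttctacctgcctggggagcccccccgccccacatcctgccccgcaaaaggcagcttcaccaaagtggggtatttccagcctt
HLA-DRB1 and HLA-DRB5 each hold GCAAC upstream of a reverse CCAAT, at positions 173 and 205 and at positions 129 and 161 of the printed sequences, and the CD74 window holds CCAAT alone, at position 198. HLA-DRB1 also holds CCAAT at 56 and GCAAC at 76, and HLA-DRB5 holds GCAAC at 32. Of 12 genes looked up, CD74 included, 11 had an entry, of which 10 held CCAAT, 4 held GCAAC and 4 held both. HLA-DRA had no entry, and HLA-DPA1 held neither. HLA-DQA1, HLA-DQB1, HLA-DMB, HLA-DOB and HLA-DPB1 held CCAAT without GCAAC. Over all 35116 promoters in the table, 34.6% held CCAAT, 33.6% GCAAC and 12.4% both. A match is a description of the letters in this window and says nothing of binding.

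The remaining class II genes were lower in level, and most were above the other lines. HLA-DPA1 was at 33.7, 27.2 and 31.6 TPM, against 2.15 in SAOS2, the next line. HLA-DMA and HLA-DMB form the complex that exchanges the peptide on class II molecules. HLA-DMA was at 55.9, 36.7 and 37.3 TPM, with MG63 next at 19, and HLA-DMB at 26.5, 18.4 and 20.8 TPM, with MG63 at 1.6. CD74, the invariant chain that guides class II molecules to the endosome and lies on another chromosome, was at 22.5, 17.5 and 22.1 TPM, against 0.255 at most in the other libraries. HLA-DQB1 was at 13.1, 9.6 and 9.98 TPM, HLA-DQA1 at 2.63, 2.59 and 2.6 TPM and HLA-DOA at 1.67, 1.29 and 0.9 TPM. There were 2 exceptions. HLA-DPB1 was at 3.39, 1.72 and 2.5 TPM beside 2.59 TPM in SAOS2, so its libraries overlapped. HLA-DOB, a chain of the complex that restrains HLA-DM, was at 0.691, 0.75 and 0.422 TPM, below MG63 (14.3) and SAOS2 (2.04), with a log2 fold change of -2.36. In all, 10 of 12 genes, CD74 included, were higher than in each of the other 5 lines by the edgeR test over libraries. Of all genes in that test, 9.71% were. Of the 11 other than HLA-DOB, 9 lay above all 21 Ewing sarcoma libraries, as did 60.2% of the members above and 13.8% of all tested genes.

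CIITA, the coactivator that class II transcription depends on, was at 13.8, 11.8 and 12.3 TPM, against line means of 1.28 (MG63) to 1.94 (U2OS). Its libraries did not overlap, and its log2 fold change was 2.95 ± 0.46 (edgeR FDR 0.29, and 0.00652 with the spread of 13 lines). The RFX subunits, present in most cells, were ordinary: RFX5 at 62.8, 53.5 and 57.2 TPM lay below SAOS2 (67.3), and RFXAP at 4.69, 5.17 and 5.02 TPM lay above KHOS (2.84) alone. RFXANK, at 118, 121 and 117 TPM, was just above MG63 (102).

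MHC class I genes were not set apart. HLA-B was at 228, 285 and 589 TPM (log2 fold change 0.87) and HLA-C at 219, 209 and 387 TPM (0.11), both with means below SAOS2. Of 17 class I presentation genes tested, 2 lay above all other libraries (11.8%): NLRC5, the class I coactivator, at 38.1, 35.2 and 36.7 TPM against 15.7 in SAOS2, and ERAP2, a peptidase that trims class I peptides, at 14.4, 10.4 and 10.1 TPM against 3.14 in MG63. In the plot of MHC genes by line, G292 separates from the other lines for most class II genes and merges with them for class I.

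**Figure D2:**
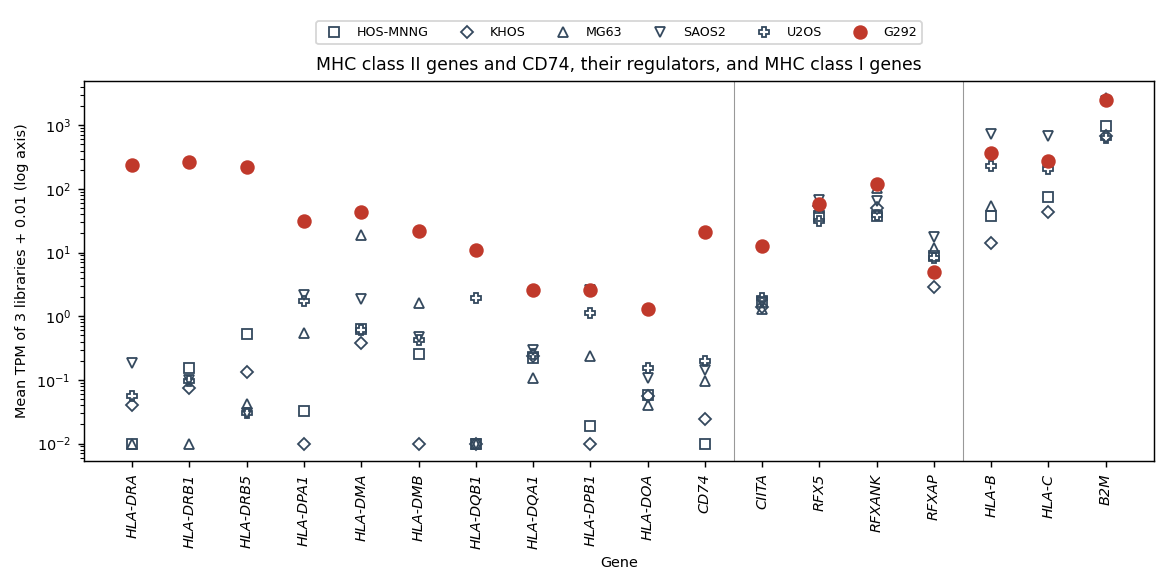
Mean TPM of 3 libraries per line (vertical axis, log scale, 0.01 added) for class II genes and CD74 (left), class II regulators (middle) and class I genes (right); red circles are G292 and open symbols the other 5 lines. HLA-DOB is not drawn. G292 is the top symbol for the class II genes drawn except HLA-DPB1, and for CIITA, but not for RFX5, RFXAP, HLA-B or HLA-C.

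Many interferon response genes were also high in G292, at smaller folds. Of 18 tested, 17 had a log2 fold change above 0 and 11 (61.1%, against 9.25% of all genes) lay above every other library. By the test over libraries 9 were higher than in each of the other 5 lines, as 9.71% of all genes in that test were. The median log2 fold change was 2.08, and 0 passed over line sums. IFI6 was at 401, 550 and 897 TPM, against 113 in SAOS2. RSAD2, which encodes the antiviral enzyme viperin, was at 7.58, 7.36 and 8.69 TPM against 1.7 in MG63, and IFI44L at 10.4, 9.37 and 12.1 TPM against 1.66 in MG63. MX2, a dynamin-like restriction factor, was at 3.26, 3.95 and 4.8 TPM against 0.541 in MG63. BST2, a tetherin of budding virus, was the 1 member below 0, at 11.1, 9.46 and 14.2 TPM against 210 in MG63. By mean TPM, 12 of the 18 were highest in G292 and 6 in MG63, which besides BST2 were IFI27, MX1, OAS3, IFIT2 and OAS2. IFI27 was at 9.56, 12.9 and 39.5 TPM in G292 and 56.3 in MG63. Like IFI6 and IFI27, some members rose from the first to the third G292 library. OAS1 was at 4.78, 7.41 and 12.4 TPM, OAS2 at 3.61, 5.49 and 9.11 and OAS3 at 6.98, 9.92 and 15.3. Others did not, and IFIT3 fell, at 37.1, 32.2 and 30.2 TPM. The summed TPM of the list was 1520 in G292, 728 in MG63, 512 in SAOS2 and 108 to 158 in the other 3 lines. IDO1, a tryptophan-degrading enzyme known to respond to interferon gamma, was at 0.594, 1.02 and 1.65 TPM, a low level just above the other lines (log2 fold change 2.83). IDO1 lies on 8p, 1.503 Mb from FGFR1, whose neighbourhood is described further on. Of 5 blood cell markers tested, 3 had a log2 fold change above 0 and 1 lay above (20%). The median was 0.88 over line sums, 1.56 without KHOS and 2.09 with line means fitted from single libraries. CD68, a lysosomal marker of macrophages, was at 97.5, 96.2 and 97.6 TPM, between HOS-MNNG (89.3) and KHOS (108), and LYZ at 0.603, 0.351 and 0.332 TPM. CD14, a monocyte marker, was at 0.374, 0.206 and 0.294 TPM against 9.87 in MG63 (log2 fold change -3.14), and HBA1, a haemoglobin chain, was at 0.00349 TPM at most (-6.01). CD3E, HBB and SPI1, not tested for want of counts, were at 0 in all 3 G292 libraries. PTPRC (CD45) was at 0.395, 0.359 and 0.342 TPM, a trace that was above the other libraries (0.316 at most). The part of these markers in the class II and interferon levels was not tested.

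CDK4 had the highest level of the genes with a wide gap. It was at 3880, 4110 and 4290 TPM in G292, and the other lines had 186 (HOS-MNNG) to 269 (SAOS2). G292 was 15.2 times the next line, and its log2 fold change of 4.15 ± 0.30 had an edgeR FDR of 0.0693 over line sums and 8.41e-05 with the spread of 13 lines. The highest Ewing sarcoma line had 466 TPM. The genes beside CDK4 on 12q13-12q14 were high with it. From KIF5A to CTDSP2 (chr12:57550044-57846729, 0.3 Mb), 15 of 16 tested coding genes lay above all other libraries, with a median log2 fold change of 2.96. The exception was CYP27B1, the enzyme that activates vitamin D, at a log2 fold change of -1.12. DCTN2, next to KIF5A, was at -0.26 and not above. ATP23, next to CTDSP2, was at 0.87 and still above all other libraries.

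Within that stretch KIF5A, a kinesin heavy chain known from neurons, was at 98.3, 92.3 and 96.7 TPM against 4.16 in U2OS. ARHGEF25, a guanine nucleotide exchange factor, was at 377, 298 and 310 TPM against 20.2 in SAOS2 (log2 fold change 4.68 ± 0.53, edgeR FDR 0.193, 0.00313 with 13 lines). TSPAN31, a tetraspanin, was at 160, 121 and 131 TPM against 14.7 in MG63, and OS9, a lectin of endoplasmic reticulum quality control, at 1040, 1030 and 1090 TPM against 250 in SAOS2. B4GALNT1, the synthase of gangliosides GM2 and GD2, was at 272, 307 and 303 TPM against 44.4 in SAOS2. METTL1, a tRNA methyltransferase, was at 135, 169 and 172 TPM against 38 in SAOS2. Each of these G292 ranges is clear of all 15 libraries.

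High genes went on in blocks along 12q. From MON2 to TMBIM4 (chr12:62466826-66169996, 3.7 Mb), 15 of 19 genes lay above all other libraries (78.9%), with a median log2 fold change of 2.44. RXYLT1, which extends the sugar chain of dystroglycan, was at 554, 549 and 567 TPM against 44.6 in SAOS2 (3.99 ± 0.37, edgeR FDR 0.139, 0.00112 with 13 lines). HMGA2, an architectural chromatin protein of embryonic mesenchyme, was at 582, 563 and 543 TPM against 86.5 in HOS-MNNG, and XPOT, the tRNA exporter, at 739, 708 and 773 TPM against 120 in HOS-MNNG. CAND1, an exchange factor of cullin ligases further along, was at 524, 531 and 580 TPM against 78.8 in SAOS2. Over the whole 14.37 Mb from KIF5A to TBC1D15, 49 of 71 tested genes lay above (69.0%) and 1, PTPRB, below. MDM2, a ubiquitin ligase and a frequent partner of CDK4 in 12q gains, lies 11.06 Mb from CDK4 and was not among them: at 24.1, 22.2 and 23.6 TPM it was below U2OS (37.6), with a log2 fold change of 0.21 ± 0.55 (edgeR FDR 0.981). FRS2, the FGF receptor adaptor past MDM2, was at 21.3, 22.2 and 22.5 TPM against 16.6 in SAOS2. These regions were outlined after the values were seen.

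**Figure D3:**
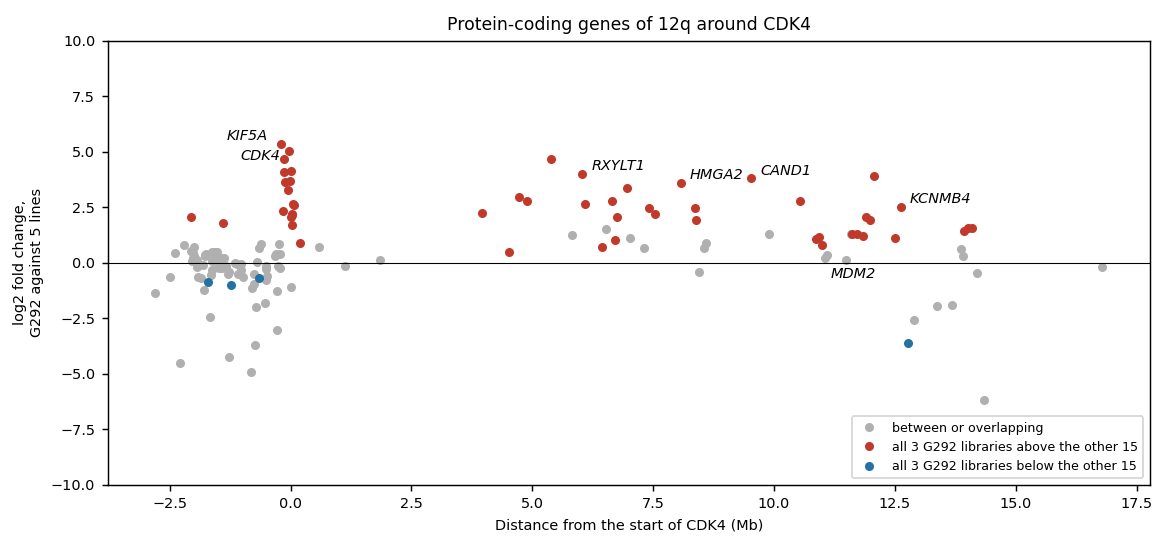
Log2 fold change of G292 against the other 5 osteosarcoma lines (vertical axis) for 150 tested protein-coding genes of 12q by distance from the start of CDK4 in Mb (horizontal axis); red points have all 3 G292 libraries above the other 15, blue points all 3 below, grey points neither. Red points are packed around CDK4 and recur out to TBC1D15, and MDM2 lies near 0 between them.

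Beyond CDK4, the list of G1 genes was mixed. Of 20 tested, 5 lay above every other library (25%) and 0 below, with a median log2 fold change of -0.32. Besides CDK4 these were CCND1, the cyclin that CDK4 binds, at 595, 554 and 575 TPM, the inhibitors CDKN2C (283, 295 and 305 TPM) and CDKN1B (56.4, 42.7 and 42.6 TPM), and MTAP, the gene next to CDKN2A, at 52.7, 50.9 and 52 TPM. CDKN2A, which encodes the CDK4 inhibitor p16 and the protein p14ARF, was at 254, 231 and 207 TPM. SAOS2 had 405 TPM and the other 4 lines close to 0, so G292 was 1 of 2 lines with CDKN2A RNA. The p16 transcript NM_000077.5 was at 86.3 TPM in G292 and 67.8 in SAOS2, and the p14ARF transcript NM_058195.4 at 136 and 319 TPM. CCND2 was at 0.00701 TPM at most in G292 and at 0.0403 TPM or less in every other line but U2OS (56.5). RB1 was at 42.3, 42.6 and 46.6 TPM.

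Another long block lay on 17p. The window from HS3ST3A1 to ZSWIM7 (chr17:13494032-15999704) had a median log2 fold change of 2.67 and 14 of 15 genes above all other libraries, the third highest of the genome among windows that do not overlap. Extended to PRPSAP2 (chr17:13494032-18931287, 5.44 Mb), 46 of 53 genes lay above (86.8%) and 0 below, with a median of 1.98. ELAC2 before it was at -0.19 and SLC5A10 after it at -0.25, and MAP2K4, a stress kinase further out, was at 18.6, 20 and 22 TPM, inside the range of the other lines. FLCN, the folliculin tumour suppressor, was at 173, 163 and 160 TPM against 23.4 in SAOS2 (3.44 ± 0.40, edgeR FDR 0.193, 0.00566 with 13 lines). PMP22, a myelin protein, was at 311, 319 and 341 TPM against 92.9 in SAOS2. NCOR1, a nuclear corepressor, was at 138, 141 and 147 TPM against 28.6 in HOS-MNNG, and COPS3, a subunit of the COP9 signalosome, at 436, 521 and 560 TPM against 206 in HOS-MNNG.

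FGFR1, a receptor tyrosine kinase for fibroblast growth factors, was at 181, 158 and 140 TPM, against 102 in MG63 and 18.5 (U2OS) to 31.8 (HOS-MNNG) in the rest. Its libraries lay above all others, its log2 fold change was 1.95 ± 0.85 (edgeR FDR 0.962), and over libraries it was higher than in each of the 5 lines. Most neighbours of FGFR1 on 8p11 were high with it. Of 20 listed and tested, 19 had a log2 fold change above 0 and 15 (75.0%) lay above every other library, with a median of 1.79. Over libraries 14 were higher than in each of the other 5 lines, as 9.71% of all genes in that test were. BAG4, a chaperone cofactor, was at 60.2, 53.4 and 57.9 TPM against 13.5 in MG63 (2.45 ± 0.49, edgeR FDR 0.386, 0.0268 with 13 lines). NSD3, a histone methyltransferase, was at 107, 104 and 109 TPM against 48.4 in MG63, and PLEKHA2, a phosphoinositide-binding protein, at 53.9, 44.2 and 46.7 TPM against 16.9 in MG63. RAB11FIP1, an endosome recycling protein in the midst of the block, went the other way, at 0.364, 0.326 and 0.309 TPM against 2.01 in KHOS, the next lowest line.

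Of 30 FGF pathway genes tested, FGFR1 and FRS2 included, 5 lay above all other libraries (16.7%) and 1 below (3.33%). Their median log2 fold change was 0.06 over line sums, 1.66 with line means fitted from single libraries and 1.52 with limma on log2(TPM + 0.1). FGF5, a secreted ligand, was at 116, 121 and 127 TPM against 52.4 in MG63. The receptor FGFR4 was at 0.557, 0.738 and 0.471 TPM, lower than in each of the other 5 lines, of which KHOS was nearest at 3.51 TPM. The feedback genes DUSP6 (38.1, 30 and 33.1 TPM) and SPRY4 (40.8, 30.4 and 30 TPM) were inside the range of the other lines, while SPRY2 was higher than in each, at 151, 128 and 142 TPM.

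Leaving out genes whose mean log2 CPM was under 1, the protein-coding genes with the widest gaps above were SLC6A15, BAALC, SLIT2, PRRX1, LRRC32, KIF5A, PTGER2, HMOX1, ARHGEF25, CDK4, NID2 and RXYLT1. None of the 12 passed over line sums (edgeR FDR 0.0693 to 0.763). With the spread of 13 lines 3 passed, as 0.36% of all genes in that fit did on the higher side. All 12 lay above all 21 Ewing sarcoma libraries as well, as did 60.2% of the members above and 13.8% of all tested genes. The same G292 values chose these 12, so this is a description. SLC6A15, a transporter of branched-chain amino acids known from brain, was at 312, 230 and 278 TPM, against 5.13 in U2OS. BAALC, a gene known from brain and acute leukaemia, was at 221, 184 and 175 TPM against 4.41 in SAOS2. SLIT2, a secreted guidance cue, was at 282, 172 and 189 TPM against 4.63 in U2OS. PRRX1, a homeobox factor of limb and craniofacial mesenchyme, was at 249, 202 and 214 TPM against 4.68 in HOS-MNNG, with a gap of 5.11 log2 CPM to the highest other library.

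HMOX1, the stress-induced haem oxygenase, was at 606, 1010 and 1040 TPM, lowest in the first library, against 41.5 in SAOS2 and 5.25 in HOS-MNNG. LRRC32 (GARP), which holds latent TGF-beta on the cell surface, was at 86, 78.3 and 68.6 TPM against 2.23 in SAOS2. PTGER2, a prostaglandin E2 receptor, was at 97.1, 103 and 98.3 TPM against 5.77 in SAOS2. NID2, a basement membrane protein, was at 37.5, 37.9 and 39.4 TPM against 2.85 in SAOS2. Among genes at 5 TPM or more in each G292 library and under 0.5 TPM elsewhere were 11 protein-coding genes, named after their values were seen. They include ALK, a receptor tyrosine kinase (12.8, 8.15 and 9.63 TPM), OSTN, which encodes osteocrin, a peptide of bone and muscle (7.38, 9.08 and 9.75 TPM), EBF2, a factor of mesenchymal and fat cell precursors (17.8, 13.6 and 14.6 TPM), and TBR1, a T-box factor of cortical neurons (5.44, 6.01 and 5.31 TPM). Of these, ALK and EBF2 also appeared among the Ewing sarcoma lines, ALK at 13 TPM in SKES1 and EBF2 at up to 8.73 TPM, whereas OSTN and TBR1 reached 0.219 and 0.221 TPM there.

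Some markers of connective tissue were high in G292. Of 20 fibroblast and mesenchyme genes tested, 17 had a log2 fold change above 0, 8 lay above every other library (40%) and 0 below, and the median was 0.97. The 8 were THY1, DCN, LUM, FAP, TWIST1, PRRX1, FN1 and ENG. LUM, which encodes the collagen-binding proteoglycan lumican, was at 1400, 1240 and 1440 TPM against 358 in SAOS2, and FAP, a surface protease of activated fibroblasts, at 29.4, 24.8 and 25.3 TPM against 4.38 in MG63. FN1 was at 2180, 1800 and 1700 TPM against 710 in MG63. TWIST1, a mesenchymal transcription factor, was at 69.3, 66 and 60.6 TPM against 43.8 in SAOS2. COL3A1, a fibrillar collagen, was at 22, 10.5 and 8.2 TPM against 800 in MG63, and its log2 fold change of -3.53 became 1.53 without MG63. PDGFRA, PDGFRB, POSTN, FBN1 and S100A4 were also highest in MG63. The summed TPM of the list was 13200 in MG63, 10300 in G292 and 2840 to 6770 in the other lines. In a bulk library, more cells of a state and more RNA per cell cannot be told apart.

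Osteoblast genes were not high as a list. Of 27 tested, 8 had a log2 fold change above 0, 3 lay above all other libraries (11.1%) and 2 below (7.41%), and the median was -0.89. SP7 (osterix), which acts downstream of RUNX2, had 0 counts in all 3 G292 libraries. It was at 22.1 TPM in SAOS2 and near 0 elsewhere. RUNX2 was at 10.8, 8.21 and 9.15 TPM and ALPL, the bone alkaline phosphatase, at 18.6, 8.98 and 9.77 TPM. SAOS2 had 187 and 824 TPM of these 2 genes, and without SAOS2 the log2 fold change of ALPL turned from -3.51 to 2.73. TNFRSF11B (osteoprotegerin), the decoy receptor that restrains osteoclasts, was at 2.91, 1.99 and 2.4 TPM and PTH1R, the parathyroid hormone receptor, at 0.0241, 0.0236 and 0.0379 TPM. Both were lower than in each of the other 5 lines. The 3 genes above all others were BMP2, a bone-inducing growth factor (13.3, 14.1 and 14.7 TPM), and the pyrophosphate regulators ENPP1 (26.4, 35.2 and 39.3 TPM) and ANKH (157, 144 and 130 TPM). Pyrophosphate outside the cell inhibits mineral. ENPP1 makes it from ATP and ANKH supplies it from the cell.

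Of 18 chondrocyte genes, 2 lay above all others (11.1%) and 1 below. The median was -1.66 over line sums, -0.83 without SAOS2, -0.16 with limma at 1 TPM and -0.04 with line means fitted from single libraries. ACAN, the core protein of aggrecan, was at 26.4, 72 and 71.1 TPM, also lowest in the first library, against 3.22 in U2OS. HAPLN1, the link protein that ties aggrecan to hyaluronan, was at 0.0191 TPM at most, with 179 TPM in SAOS2, 98.5 in U2OS, 0.239 in HOS-MNNG and 0 in KHOS and MG63. COL11A1 was at 0.0893 TPM at most and, like HAPLN1, above 1 TPM only in SAOS2 (67.6) and U2OS (18). Of 9 epithelial genes tested 0 lay above and 1 below (11.1%). The median was -4.3 over line sums, -1.32 with line means fitted from single libraries and -0.64 with limma at 1 TPM. KRT18 was at 6.38, 5.61 and 5.36 TPM against 52.1 in MG63, the next lowest line, and KRT8 at 5.05, 2.56 and 2.61 TPM against 5.2 in SAOS2. KRT14 went the other way, at 2.1, 3.17 and 2.07 TPM (log2 fold change 2.14) beside 2.6 in U2OS, and KRT19 and KRT5 were near 0 in G292 and in most other lines. The summed TPM of the epithelial list was 13 in G292 and 101 to 1740 in the other lines.

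Of the 10 muscle genes tested 0 lay outside the other libraries, and MYOD1 and TNNT2 were at 0 in all 3 G292 libraries. Of 10 endothelial genes, TEK alone lay above, at 1.75, 2.9 and 2.55 TPM, and CDH5 was at 0.0223 TPM at most. Of 14 neural genes, GAP43 alone lay above in CPM, though in TPM it was at 2.14, 2.35 and 2.2 beside 2.25 in U2OS. TUBB3, a neuronal tubulin, was at 707, 636 and 548 TPM against 474 in MG63 and was higher than in each of the other 5 lines over libraries, and NEFM and STMN2 were at 0. Of 8 genes that mark Ewing sarcoma, STEAP1 alone lay above, and NKX2-2, NR0B1 and CCK were at 0.

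**Figure D4:**
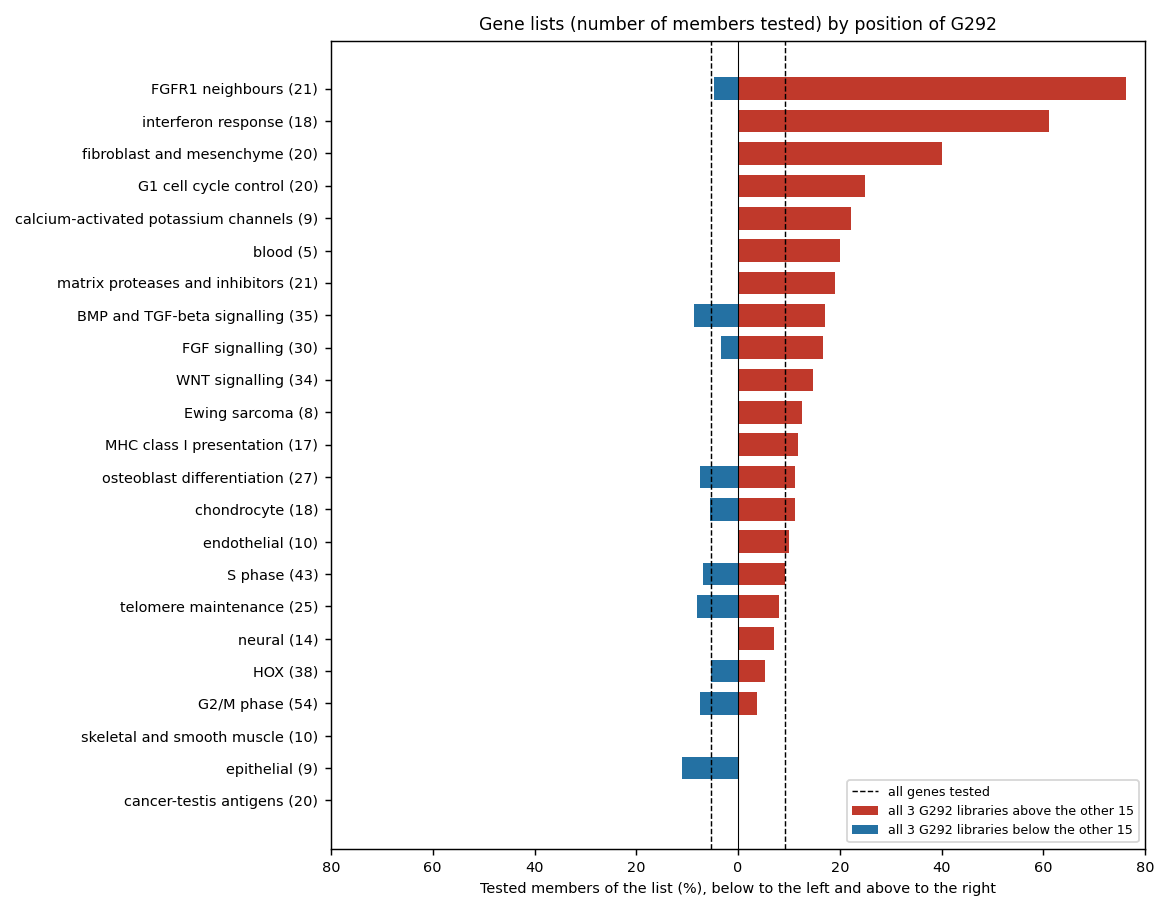
Share of the tested members of each gene list (number tested in brackets) with all 3 G292 libraries above (red, to the right) or below (blue, to the left) the other 15 osteosarcoma libraries; dashed lines give the same shares over all 26616 genes, 9.25% above and 5.24% below. FGFR1 and its neighbours (76.2%), interferon response (61.1%) and fibroblast and mesenchyme genes (40%) reach farthest to the right. Over protein-coding genes alone the shares were 11.4% above and 6.6% below.

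Genes missing from G292 alone included some that nearly every line uses. HDHD5, a gene at 22q11 of little known function, had 0 counts in G292. The other 15 libraries held 37.5 to 56.5 TPM with a median of 45.9, and the Ewing sarcoma lines 64 to 112 TPM. Against a floor of 3 counts over the 3 G292 libraries it was at least 1600-fold lower (counting error only). Its edgeR FDR was 0.0784 over line sums and 8.41e-05 with 13 lines. The adjoining genes were also low: IL17RA, the interleukin 17 receptor, was at 0.0412, 0.0364 and 0.0338 TPM against 2.08 in KHOS, the lowest other line, and TMEM121B had 0 counts against 0.0836 in KHOS. The stretch of these 3 genes spans chr22:17085000-17165287, and the genes on either side, XKR3 (log2 fold change -0.79) and ADA2 (0.34), did not share the pattern.

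Short runs of low genes, outlined after the values were seen, also lay on 11q and 21q. At 11q12, FAM111B was at 0.0284, 0.0708 and 0.0669 TPM against 9.96 in KHOS, the next lowest line, and FAM111A at 0.183, 0.182 and 0.134 TPM against 7.91 in KHOS. FAM111A is a protease that acts at replication forks. DTX4, an E3 ligase at the end of the run, had 0 counts, while its level elsewhere ran from 0.0766 TPM in KHOS to 117 in MG63. The flanking coding genes GLYATL1B (log2 fold change -2.87) and MPEG1 (-2.93) had low counts and did not lie below every library. OSBP, farther along the same arm, was at 54.6, 48.5 and 51.5 TPM, above the other lines. On 21q, from HEMK2 to BACH1 (chr21:28575598-29361894), all 7 tested genes lay below every other library, with a median log2 fold change of -1.7. Of the flanking genes, LOC124905050 was at -3.1, also with low counts and not below every library, and GRIK1 at -0.08. RWDD2B was nearly absent there, at 0.0537, 0.103 and 0.146 TPM against 11.9 in MG63 (-7.32 ± 0.89, edgeR FDR 0.193, 0.00139 with 13 lines). The rest of the run was reduced rather than absent. CCT8, a chaperonin subunit, was at 137, 153 and 171 TPM against 338 in MG63, and LTN1, a ligase of ribosome quality control, at 4.75, 5.37 and 6.05 TPM against 12.3 in KHOS.

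The other genes with the widest gaps below, under the same limit on the mean, lay elsewhere. EEF1A2, the translation elongation factor of muscle and neurons, was at 0, 0.0811 and 0.0435 TPM against 58.6 in MG63. MYADM, a membrane protein of lipid rafts, was at 0.0251, 0.086 and 0.0852 TPM against 33.1 in SAOS2 (-9.59 ± 1.12, edgeR FDR 0.193, 0.00606 with 13 lines). JUP, the junction protein plakoglobin, was at 0.0595, 0.0145 and 0.0468 TPM against 8.8 in SAOS2. EXD2, an exonuclease of DNA repair, rested on 2 counts in G292, against 6.18 TPM in KHOS. LRATD2 was at 0.0732 TPM at most, and LOC102724428 and MAGED4 were at 0 in all 3 libraries. MAGED4 has a near-identical copy, MAGED4B, so its reads could have been split, and it lies in a low stretch of X, from DGKK to XAGE1B. None of the 12 genes with the widest gaps below passed over line sums (edgeR FDR 0.0784 to 0.662). With 13 lines 7 passed, as 0.0494% of all genes in that fit did on the lower side. All but EXD2 and FAM111A, that is 10, lay below all 21 Ewing sarcoma libraries. So did 46.6% of the members below and 9.07% of all tested genes. The same G292 values chose these 12, so this is a description. EGFL7, an extracellular protein of vessels, was at 0.182, 0 and 0.215 TPM against 12.2 in MG63, named after its values were seen.

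Cancer-testis antigens, genes of the germ line that many tumours switch on, were nearly absent. Of 20 tested, 0 had a log2 fold change above 0. None lay below every other library either, because most were also at 0 in 1 or more of the other lines. The median log2 fold change was -10.74, and -9 with the 13 genes that had no count in G292 set at their bound. It was -4.6 with line means fitted from single libraries, -1.53 and -2.12 with limma at 1 and 0.1 TPM, and -16.03 with DESeq2's Wald test. MAGEA3, MAGEA4, MAGEA6, MAGEA12, CTAG2 and XAGE1B were at 0 in all 3 G292 libraries. SAOS2 had 340 TPM of MAGEA3 and U2OS 1040 TPM of XAGE1B, while MG63 was at 0 for MAGEA3. PRAME was the 1 member at a clear level, 37.8, 31.8 and 35.1 TPM. It was at 11.2 TPM in SAOS2, 145 to 212 in HOS-MNNG, MG63 and KHOS, and 403 in U2OS. Without PRAME, the summed TPM of the list was 0.191 in G292, 0.157 in KHOS, 0.331 in MG63, 6.5 in HOS-MNNG, 1300 in SAOS2 and 2310 in U2OS, so the near absence was shared with KHOS and MG63. The 2 lowest windows that do not overlap were on X, from PRRG3 to MAGEA6 (chrX:151694607-152769689, median -12.41, or -8.32 with zeros at their bound) and from DGKK to XAGE1B (chrX:50365409-52517068, -10.55, or -6.57). The third, from MYH10 to MYH2 (chr17:8474212-10549658), had a median of -6.78, or -3.1 with zeros at their bound. It holds muscle myosin genes that are low in most of the lines.

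DAXX, a histone H3.3 chaperone whose loss is known from tumours that keep telomeres without telomerase, was at 25.8, 26.2 and 28.2 TPM. The other lines had 43 (MG63) to 79.7 (HOS-MNNG), and no library overlapped. It was lower than in each of the other 5 lines over libraries, with a log2 fold change of -1.22 ± 0.56 (edgeR FDR 0.962). Its transcripts differed in mix: XM_005248860.4 was at 0.24 TPM in G292 and 5.42 to 17.7 TPM in the other lines, whereas NM_001141969.2 was at 21.3 TPM, near MG63 at 24. As background, a rearrangement joining DAXX and the kinesin gene KIFC3 has been described in G-292, and fusions cannot be read from these tables. KIFC3 as a whole was at 72.4, 76 and 74.8 TPM, between KHOS (34.5) and MG63 (127). Its transcript NM_001318712.2 was at 22.4 TPM in G292 against 2.17 to 12.5 elsewhere, and XM_047434091.1 at 5.42 TPM against 0.808 at most. Transcript values are estimates and depend on how reads shared by isoforms were divided.

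TERT, the catalytic subunit of telomerase, had 0 counts in all 3 G292 libraries and was also at 0 in SAOS2. It was at 0.0265 TPM in U2OS, 0.668 in MG63, 1.38 in HOS-MNNG and 2.65 in KHOS. ATRX, the partner of DAXX, was at 21.1, 18.9 and 19.5 TPM, between SAOS2 (1.96) and U2OS (33.9). Of 25 telomere maintenance genes, 2 lay above (8.0%) and 2 below (8.0%), with a median of 0.04. Those above were TINF2, of the shelterin complex, and H3-3A, which encodes the histone that DAXX deposits, at 354, 373 and 367 TPM. H3-3B, the gene for the same histone, lay below with DAXX.

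Matrix proteases, WNT and BMP genes each had a few members at the top. Of 21 proteases and inhibitors, 4 lay above (19%). MMP1, a collagenase, was at 223, 145 and 245 TPM against 27.4 in KHOS, and MMP13, the collagenase of cartilage and bone, at 11.8, 25 and 30.6 TPM against 1.84 in HOS-MNNG. MMP9 had 0 counts and was low in most lines, with 18.8 TPM in U2OS and 0.0363 to 1.1 in the other 4. Of 34 WNT pathway genes, 5 lay above (14.7%) and 0 below, with a median of -0.39, among them TCF7, a transcription factor of the pathway, at 164, 159 and 147 TPM against 27.7 in SAOS2. Of 35 BMP and TGF-beta genes, 6 lay above (17.1%) and 3 below (8.57%), with a median of -0.15. BMP7 was at 0.0443, 0.0207 and 0.0577 TPM, lower than in each of the other lines. Of 38 HOX genes, 2 lay above (5.26%) and 2 below (5.26%), with a median of -0.18. HOXB13 was at 0.0151 TPM at most, against 1.01 in SAOS2, the next lowest line. With line means fitted from single libraries in place of line sums, the medians of the channel, neural, G1, HOX, WNT and BMP lists lay above 0 and that of the proteases went from -0.01 to 1.2.

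Proliferation genes gave no shared direction. Of 43 S phase genes, 4 lay above (9.3%) and 3 below (6.98%), with a median of -0.11, and of 54 G2/M genes, 2 lay above (3.7%) and 4 below (7.41%), with a median of -0.07. In TPM, all 43 and all 54 were lowest in the first of the 3 G292 libraries, and without that library the medians were 0.01 and 0.04. TPX2, a spindle assembly factor, was at 349, 525 and 538 TPM against 252 in SAOS2. HJURP, the chaperone of centromeric histone, was at 18.9, 23.9 and 24.3 TPM against 54.3 in MG63, the next lowest line, and ANLN, a scaffold of the cleavage furrow, at 40.1, 60.2 and 64 TPM against 99.8 in SAOS2.

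The genes were also set beside the Ewing sarcoma libraries, with the same G292 values that had chosen them. Of the 2463 genes above the other osteosarcoma libraries, 1482 (60.2%) also lay above all 21 Ewing sarcoma libraries, beside 13.8% of all tested genes. Of the 1396 genes below, 650 (46.6%) lay below all of them, beside 9.07% of all tested genes. Genes chosen for a high or low G292 value are more likely to lie outside any other set of libraries, so nothing is read from the difference between these shares. KCNN2, MEG3, CDK4, FGFR1, FLCN, CIITA, CD74, HLA-DRA and HMOX1 were among those above, and HDHD5 was among those below. HLA-DOA, HLA-DPB1 and MDM2 were not outside the Ewing sarcoma range.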

How the data were processed

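Poly(A) RNA of 6 osteosarcoma and 7 Ewing sarcoma lines, 3 libraries each, was extracted with a NucleoSpin RNA Plus kit and sequenced as TruSeq Stranded mRNA libraries, per the labels' protocols. The submitters' processing notes name fastp 0.19.5, kallisto 0.46.2 and the builds hg38 and GRCh38.p14. The authors deposited, per the file headers, an estimated count, an effective length and a TPM value for each of 177816 RefSeq transcripts. kallisto divides reads shared by transcripts, so genes with near-identical copies (HLA-DRB1 and HLA-DRB5, MAGED4, MAGEA3 and MAGEA6) are uncertain, and polymorphic HLA reads were matched to reference sequences. The 6 A673 libraries labelled sh908, with or without doxycycline, were not used.

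Transcript values were summed per gene through the RefSeq table: 169960 transcripts (95.6%) matched 41578 genes, and transcripts without a gene held 1.069 to 1.603% of the counts. Summed counts were rounded to whole numbers. Genes passed filterByExpr (minimum count 10) and were scaled by TMM. Log2 CPM used a prior count of 2. edgeR 4.0.16 (R 4.3.3) tested line sums and single libraries. Alternatives used DESeq2 1.42.0, limma 3.58.1 on log2(TPM + 1) and log2(TPM + 0.1), an effective length offset, no filter, the spread of 13 lines, HOS-MNNG and KHOS as 1 line, fixed line means and fits without 1 line or library. A fold against 0 counts used a floor of 3 counts over the 3 libraries and covers counting error only. The scripts were tested on simulated data.

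Same-numbered libraries of G292 and another line did not deviate together (r = -0.23 to 0.292 over 15 pairs of libraries, 3 in each of the 5 lines, with 3 of the 15 over 0.1), so the numbers were not taken as pairs. Genes named were the potassium channels, FGFR1, DAXX, KIFC3, ATRX, CDKN2A, TERT, RUNX2 and ALPL, the 12 coding genes each way with the widest gap and a mean log2 CPM of at least 1, called or not, and up to 4 members of each list with the largest fold change. The others (neighbours in the outlined regions, class II and MEG genes, genes on or off in G292 and some members of lists) were named after their values were seen. Some genes and lists are not reported here. The members and the gene lists were chosen with earlier results of these data known.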

Additional observations from a re-analysis of the deposited data

Results flagged for a closer look

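Each of 188 genes was checked for 1 line far from the other 4 among the 5 osteosarcoma lines that G292 was set against, by a gap over range above Dixon's critical value of 0.71. This picked out 25 genes, and chance does so in about 1 in 20 groups. A high line among them raises the mean that G292 is set against, while a low one moves it little.

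SAOS2 stood apart for ATRX (1.96 TPM), CDKN2A (405 TPM), SP7 (22.1 TPM), HOXB9 (0.548 TPM), SFRP2 (4.31 TPM), OS9 (250 TPM) and GRIA1 (0.00911 TPM). U2OS stood apart for KCNN1 (4.36 TPM), ACAN (3.22 TPM), STMN2 (0.398 TPM), TNNT2 (128 TPM), NR0B1 (2.45 TPM), CCK (0.524 TPM), FDXR (93.1 TPM), CCND2 (56.5 TPM), CCNE2 (15.6 TPM) and HLA-DQB1 (1.95 TPM). MG63 stood apart for KIF5A (0.0704 TPM), KCNMB2 (12.1 TPM), CDH5 (5.28 TPM), KRT19 (28 TPM), EPCAM (0.0742 TPM), FGF18 (90.6 TPM), RSAD2 (1.7 TPM) and DLK1 (0.203 TPM).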

How the results depend on the processing

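Over line sums 1 gene passed at an FDR of 0.05. The count stayed 1 with DESeq2 size factors and ranged from 1 to 1 when 1 replicate number or 1 G292 library was left out. It was 2 with no filter, 116 with the spread of 13 lines, 734 with DESeq2's Wald test, and 209 and 62 with limma at a pseudocount of 1 and 0.1 TPM. It was 0 with HOS-MNNG and KHOS as 1 line, with the effective length offset and without HOS-MNNG, KHOS, MG63 or U2OS, and 1 without SAOS2. At an unadjusted p under 0.05, edgeR found 1140, 1422, 1047, 1167, 1725 and 1476 genes in those 6 fits. With fixed line means (no spread between lines in the test) 14142 genes passed, and 14122 with the replicate block. Over libraries 1754 to 2147 genes were highest and 1032 to 1416 lowest; the replicate block gave 2129 and 1352. MEG3 was the 1 call over line sums, so no other named gene could lose one.

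The median over all genes moved from -0.26 to -0.013 with fixed line means and to -0.042 and -0.072 with limma, and the share of genes above 0 from 39.2% to 49.4, 42.8 and 45.7%. List medians moved with it. With fixed line means they were 0.4 (potassium channels), -0.04 (chondrocyte), 0.21 (neural), -2.03 (muscle), 2.09 (blood), -1.32 (epithelial), -2.13 (Ewing sarcoma), 1.66 (FGF), 0.1 (G1), 0.24 (HOX), 0.56 (WNT), 0.45 (BMP and TGF-beta), 1.2 (proteases) and -4.6 (cancer-testis). With the replicate block added they were 0.39, -0.04, 0.2, -2.04, 2.1, -1.33, -2.09, 1.66, 0.1, 0.23, 0.56, 0.42, 1.2 and -4.57 in that order. With limma at 1 TPM they were -0.16 (chondrocyte), -0.09 (neural), -0.26 (muscle), -0.21 (endothelial), -0.64 (epithelial), -0.25 (Ewing sarcoma), 0.06 (G1), 0.2 (WNT) and -1.53 (cancer-testis). At 0.1 TPM they were -0.34 (chondrocyte), -0.28 (neural), -0.75 (muscle), -1.24 (epithelial), -0.68 (Ewing sarcoma), 1.52 (FGF), 0.08 (G1), 0.19 (HOX), 0.37 (WNT), 0.45 (BMP and TGF-beta) and -2.12 (cancer-testis). Without SAOS2 the chondrocyte median was -0.83, muscle -0.76 and G1 -0.18. Without U2OS muscle was -0.8, Ewing sarcoma -0.5 and G1 -0.13. Blood was 1.56 without KHOS, G1 -0.28 without G292 replicate 1, potassium channels -0.75 with the length offset and cancer-testis -16.03 with DESeq2's Wald test. The other 446 list medians moved by less than their spread, and the cause was not tested.

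Among named genes 28 fold changes of 3983 reversed. KCNN1 was 0.59 without U2OS. KCNMA1 was 0.08 with HOS-MNNG and KHOS as 1 line, 0.18 without KHOS and 0.4 with fixed means (0.39 with the replicate block). KIFC3 was 0 with HOS-MNNG and KHOS as 1 line, -0.08 without KHOS, -0.01 without SAOS2 and -0.13 without U2OS. ATRX was -0.2 without SAOS2 and RUNX2 0.05 with limma at 0.1 TPM. ALPL was 0.72 and 1.48 with limma, 2.73 without SAOS2 and 1.76 with fixed means (1.72 with the block). KCNMB2 was 0.2 with limma at 0.1 TPM, 3.78 without MG63 and 2.69 with fixed means (2.64 with the block). COL3A1 was 0.73 and 1.61 with limma, 1.53 without MG63 and 1.87 with fixed means (1.8 with the block). FGF18 was 1.27 without MG63 and RNF43 0.38 with fixed means (0.33 with the block). Depth limits the genes with few counts: those at 0 in G292 have a bound and no fold, and the small RNAs of 14q32 rest on 15 to 120 counts.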
